A study of Homo sapiens with 5 samples.

Results

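Cullin-RING ligases are modular ubiquitin ligases, and the genes described here encode their cullin scaffolds and 3 groups of substrate adaptors: the F-box proteins (FBXL, FBXW and FBXO), the Kelch-like proteins (KLHL) and the related KBTBD proteins. Members were chosen by symbol, as rows of the count table named for these families with at least 10 counts in at least 2 of the 5 libraries. Of 118 rows with such names, 84 met the rule, out of 57221 rows in all: 8 cullins, 14 FBXL, 7 FBXW, 26 FBXO, 24 KLHL and 5 KBTBD genes. The other 34 fell below it, and 14 of these had no count in any library. Just inside the rule stood KLHL32, with 3 and 7 counts in DMSO and 20, 14 and 7 in UNC1999. It met the rule through UNC1999 libraries alone. FBXL22 also had few counts, with 5 and 15 in DMSO and 16, 12 and 11 in UNC1999. Just outside stood FBXO24, with 3 and 7 counts in DMSO and 16, 7 and 8 in UNC1999. All 84 members also passed the filter on low counts, which kept 13075 genes for testing.

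The RNA came from NK92MI, an established human natural killer (NK) cell line that carries an introduced IL2 gene. Cells were grown for 48 h with the solvent DMSO (2 libraries) or with 10 µM UNC1999 (3 libraries), a small-molecule inhibitor of the histone methyltransferases EZH2 and EZH1. In the labels the groups differ by treatment alone. The libraries are called D1 and D2 (DMSO) and U1, U2 and U3 (UNC1999) below. No label states that they are separate cultures, so every p-value rests on a spread between libraries that could be purely technical. Library totals lay between 8442908 and 8748106 counts, and the members together took 0.295% to 0.300% of counts in DMSO and 0.320% to 0.332% in UNC1999. All 11 NK markers examined were detected. Of 5 T-cell markers, CD3D, CD3G, CD4 and CD8B had no count in any library, while CD3E stood at 647 and 677 CPM in DMSO and 566 to 650 CPM in UNC1999, and the summed B-cell, monocyte, erythroid and stromal markers each stayed at or below 6.94 CPM (counts scaled to library size and TMM factor). U2 stood apart: its chi-square per degree of freedom was 8.09 against U1 and 9.49 against U3, while U1 against U3 gave 1.87. In bulk RNA, fewer cells of a type and less RNA per cell cannot be told apart.

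A cullin holds an adaptor with its bound substrate at one end and a RING protein, which recruits the ubiquitin-conjugating enzyme, at the other. CUL1 takes F-box proteins through SKP1, CUL3 binds BTB proteins such as the KLHL and KBTBD families directly, CUL2 and CUL5 work through elongins B and C, and CUL4A and CUL4B through DDB1. Attachment of the small protein NEDD8 to a conserved lysine near the cullin's C-terminus switches the ligase on, the COP9 signalosome removes it, and CAND1 exchanges adaptors on the unmodified cullin. The coding sequence around this lysine is shown for the 6 cullins in which a search for its surrounding residues found it, because these 6 share the mechanism. Each stretch has 57 bases (GENCODE 29, GRCh38), with the lysine codon in capitals.

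CUL1: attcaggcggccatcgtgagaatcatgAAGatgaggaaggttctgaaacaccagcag
CUL2: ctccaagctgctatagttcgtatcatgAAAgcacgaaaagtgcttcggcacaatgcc
CUL3: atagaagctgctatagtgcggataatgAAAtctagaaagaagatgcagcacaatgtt
CUL4A: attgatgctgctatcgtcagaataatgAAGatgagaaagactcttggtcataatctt
CUL4B: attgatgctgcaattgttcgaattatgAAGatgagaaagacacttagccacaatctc
CUL5: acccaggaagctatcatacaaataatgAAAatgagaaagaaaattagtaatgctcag
The paralogs CUL4A and CUL4B were the most alike of the 15 pairs, with 47 of 57 bases identical (82.5%), and CUL2 and CUL5 the least, with 28 (49.1%). Over the whole coding sequence, CUL4A had 48.4% G and C and CUL4B 39.8%.

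Across all members, UNC1999 was followed by small changes in both directions. With edgeR's quasi-likelihood test and Benjamini-Hochberg adjustment over all 13075 genes at a threshold of 0.05, 22 members rose, 12 fell and 50 did not pass the test. The background was 15.7% of all tested genes higher and 19.5% lower, against 26.2% and 14.3% of the members. The median log2 fold change was 0.16 over the members and -0.01 over all tested genes. KLHL8 was the sole called member that changed at least 2-fold. The split depended on scaling: with no normalization factors it was 31 higher and 9 lower (all genes 22.6% and 13.3%), and with upper-quartile factors 30 and 11 (all genes 20.1% and 15.5%). Without factors, the median over all genes stood at 0.09. When each library's trends with GC content and transcript length were removed by offsets in the fit, 9 members were higher and 14 lower (all genes 14.6% and 18.7%), with a median of 0.03. Values below are from the fit without offsets unless they are named as offset values.

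**Figure D1:**
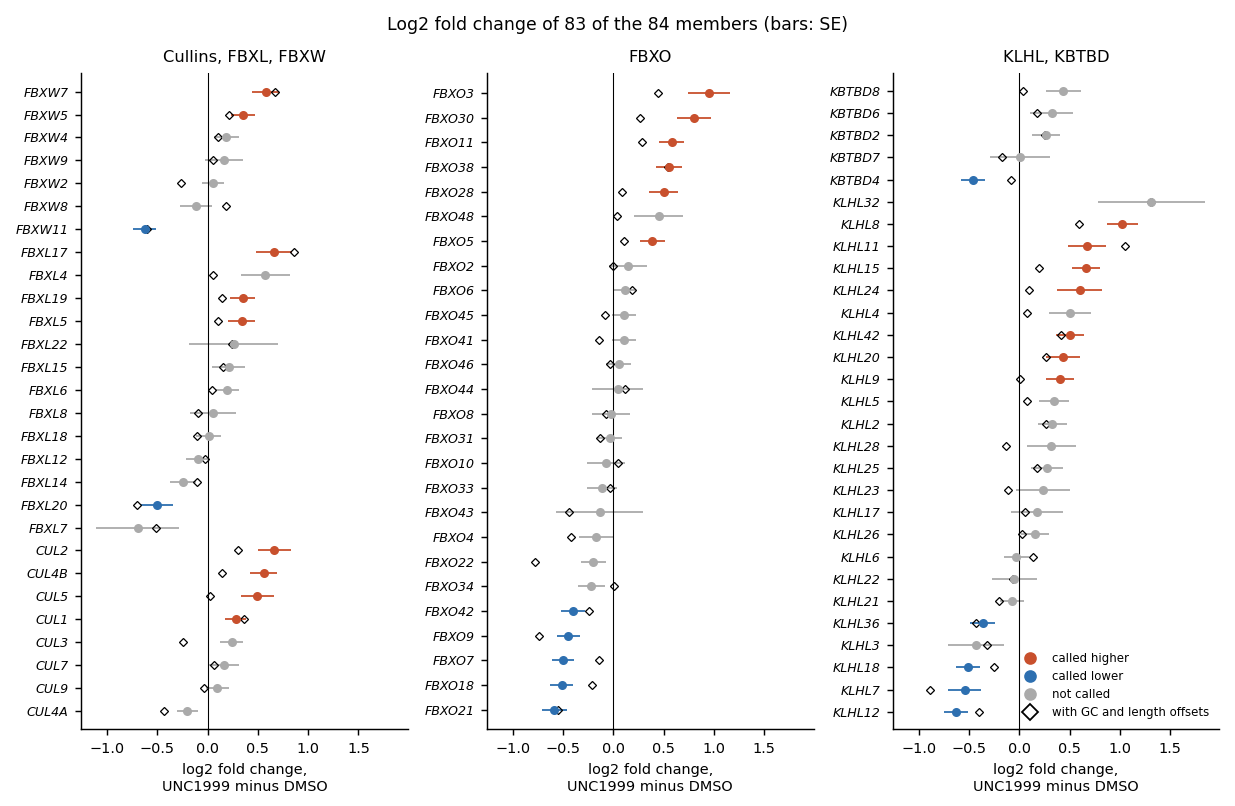
Log2 fold change (UNC1999 minus DMSO) of 83 of the 84 members by family, with bars for the standard error; colour gives the call and open diamonds the value with GC and length offsets. Of the 22 members called higher and 12 called lower, 9 in each direction were called again with offsets.

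Among the cullins, 4 of 8 rose (CUL1, CUL2, CUL4B and CUL5) and none passed the test as lower. The shares over all tested genes, 15.7% higher and 19.5% lower, stand beside this and the other family counts below. With offsets 1 cullin was called higher and 2 lower (all genes 14.6% and 18.7%). CUL2, the scaffold used by VHL, measured 9.93 and 9.27 CPM in DMSO and 14.3, 16.8 and 14.5 in UNC1999. The groups did not overlap, and the log2 fold change was 0.66 ± 0.16 (SE; edgeR adjusted p = 0.00149), with an offset value of 0.31 that was not called. CUL4B measured 19 and 18.5 CPM in DMSO and 26, 29.9 and 27 in UNC1999, with no overlap and a log2 change of 0.56 ± 0.14 (edgeR adjusted p = 0.00138). Its paralog CUL4A went the other way in every library, at 162 and 164 CPM in DMSO and 138, 142 and 146 in UNC1999. Its log2 fold change of -0.20 ± 0.11 was not called (edgeR adjusted p = 0.14); it was called lower in 5 alternatives, the fit without U2 (0.0408) and 4 fits with offsets. With offsets the 2 paralogs read differently: CUL4A was called lower at -0.43 (edgeR adjusted p = 6.98e-06), and CUL4B stood at 0.15 with no call. The difference between the paralogs' responses was not tested.

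CUL1, the scaffold of the SCF ligases, was the most abundant cullin per kilobase of transcript, at 81.8 CPM per kb in DMSO. It measured 242 and 259 CPM in DMSO and 288, 325 and 298 in UNC1999. All UNC1999 libraries lay above both DMSO libraries, and the log2 fold change was 0.28 ± 0.11 (edgeR adjusted p = 0.0437). This call was lost without D1 (0.349), D2 (0.136), U1 (0.0735) or U3 (0.0871), all edgeR adjusted p, while the offset value was 0.36 (edgeR adjusted p = 4.52e-05). CUL5 rose by 0.50 ± 0.17 (edgeR adjusted p = 0.0196), a call lost without D1 (0.0593), D2 (0.199) or U3 (0.101), and its offset value was 0.02. CUL3, the scaffold of the KLHL and KBTBD ligases, measured 58.2 and 60.8 CPM in DMSO and 67.6, 71.1 and 72 in UNC1999. Its 0.24 ± 0.11 was not called (edgeR adjusted p = 0.0959). It was called higher without U2 (0.0295), with no normalization factors (0.34 on the log2 scale), upper-quartile factors (0.31), the stricter filter (0.28) and offsets taken within groups (0.24). With offsets taken from the mean of all libraries it was called lower at -0.24 (edgeR adjusted p = 0.0195). CUL7 (0.17) and CUL9 (0.10), the large atypical cullins, overlapped between the groups and did not pass.

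**Figure D2:**
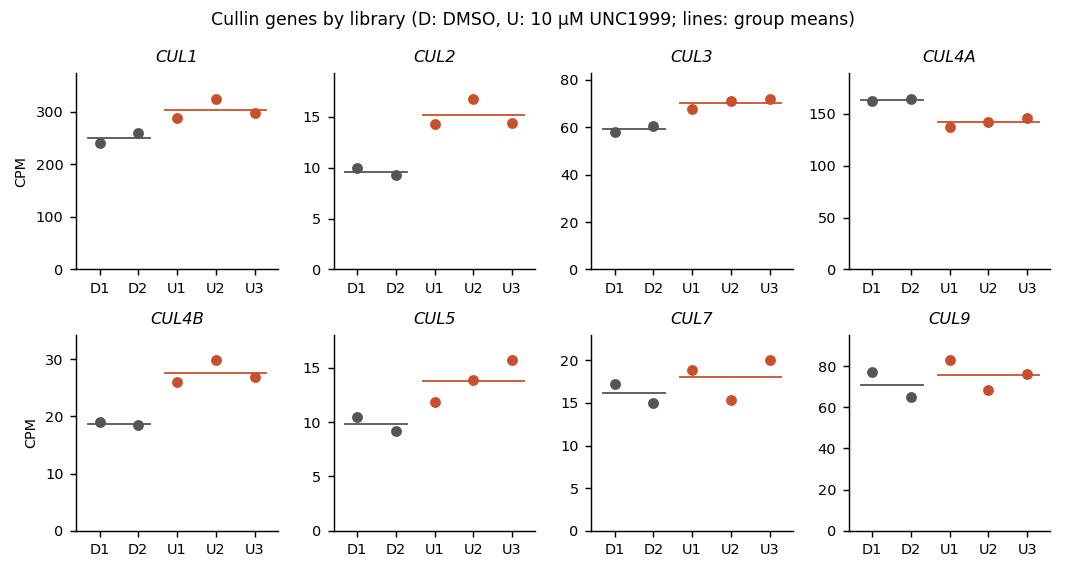
Normalized expression (CPM, linear axis from 0) of the 8 cullin genes in each DMSO (D) and UNC1999 (U) library, with lines for the group means. CUL1, CUL2, CUL3, CUL4B and CUL5 lie higher in every UNC1999 library than in both DMSO libraries, CUL4A lies lower, and CUL7 and CUL9 overlap.

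In the FBXW family, whose WD40 repeats bind phosphorylated substrates, 2 of 7 members rose and 1 fell. FBXW7 (chr4:152320544-152536063, GRCh38), the receptor for MYC, cyclin E and NOTCH1, measured 16.9 and 18.9 CPM in DMSO and 25.5, 27.3 and 27.3 in UNC1999. Its groups did not overlap, with a log2 change of 0.58 ± 0.14 (edgeR adjusted p = 0.00103) and an offset value of 0.67. FBXW11 (chr5:171861549-172006873, GRCh38), a beta-TrCP protein that recognises phosphorylated IκBα and β-catenin, measured 112 and 99 CPM in DMSO and 64.3, 77.1 and 63.7 in UNC1999. All UNC1999 libraries lay below both DMSO libraries, with a log2 change of -0.63 ± 0.11 (edgeR adjusted p = 4.83e-05) and an offset value of -0.61. FBXW5 rose by 0.35 ± 0.12 (edgeR adjusted p = 0.0177), a call lost without D1 (0.123), D2 (0.164) or U3 (0.18). FBXW2, the FBXW gene with the highest CPM among those with no call, stood at 0.05, and at -0.26 with offsets, where it was called lower (edgeR adjusted p = 0.00726).

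Of the 14 FBXL genes, which carry leucine-rich repeats, 3 rose and 1 fell. FBXL17, which takes up mispaired BTB dimers, measured 7.33 and 11.4 CPM in DMSO and 12.5, 16.2 and 15.7 in UNC1999. The DMSO libraries lay far apart: the log2 fold change of 0.66 ± 0.18 (edgeR adjusted p = 0.00372) became 0.37 without D1, where the call was lost (0.229), and 1.01 without D2. FBXL19, a CpG-binding protein, was called higher at 0.35 ± 0.12 (edgeR adjusted p = 0.0252) although its groups overlapped, and lost the call without D1 (0.368), D2 (0.0514) or U3 (0.222). The iron sensor FBXL5, which directs degradation of IREB2, rose by 0.34 ± 0.13 (edgeR adjusted p = 0.0427) and lost the call without D1 (0.157), D2 (0.225), U1 (0.0687) or U2 (0.0572). With offsets neither FBXL19 (0.15) nor FBXL5 (0.10) was called, while FBXL17 was (0.86). FBXL20 fell by 0.50 on the log2 scale (SE 0.16, edgeR adjusted p = 0.0143), but by 0.21 with no call without D1 (0.518), and it also lost the call without U1 (0.0581). FBXL12 did not pass at -0.10. FBXL6, the most abundant FBXL gene with no call, stood at 0.19 and passed without U2 (0.0097). In the annotation, 31.7% of the exonic bases of FBXL6 overlap SLC52A2 on the opposite strand. No source used here gives the strand setting of the counting, so reads of such partners cannot be told apart. CUL1, CUL4A, FBXW4, FBXW11 and KLHL2 each have an annotated pseudogene copy, and how the counting split reads between copies is unknown here.

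The FBXO family moved in both directions, with 6 of 26 higher, 5 lower and a median of 0.01. FBXO3 had the highest fold change of a called F-box gene, at 5.59 and 3.8 CPM in DMSO and 9.37, 10 and 7.74 in UNC1999. Its log2 fold change was 0.95 ± 0.21 (edgeR adjusted p = 0.000588), with no call without D2 (0.0543) or with offsets (0.44). FBXO30, known from muscle atrophy, rose by 0.80 ± 0.17 (edgeR adjusted p = 0.000294), and its offset value of 0.27 was not called. FBXO11, which targets BCL6, measured 23.7 and 26.3 CPM in DMSO and 36.4, 37.2 and 38.5 in UNC1999. It rose by 0.58 ± 0.13 (edgeR adjusted p = 0.000481) and was called with offsets at 0.28, while 25.2% of its exonic bases overlap MSH6 on the opposite strand. FBXO5 (EMI1), an inhibitor of the anaphase-promoting complex rather than a typical adaptor, rose by 0.39 ± 0.12 (edgeR adjusted p = 0.0109), a call lost without D1 (0.225) and with offsets (0.10).

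The lowest FBXO genes were FBXO21, FBXO18 and FBXO7. FBXO21 measured 46.2 and 47.2 CPM in DMSO and 27.4, 30.7 and 34.9 in UNC1999, with no overlap. It fell by 0.59 on the log2 scale (SE 0.12, edgeR adjusted p = 0.000276), and by 0.55 with offsets. FBXO7, a gene mutated in a form of parkinsonism, measured 148 and 143 CPM in DMSO and 94, 116 and 97.3 in UNC1999. It fell by 0.50 (SE 0.11, edgeR adjusted p = 0.000519), but its offset value of -0.14 was not called. FBXO18, the DNA helicase now named FBH1, fell by 0.51 (SE 0.12, edgeR adjusted p = 0.000616), with no call without D1 (0.0753) or with offsets (-0.21). FBXO41, the FBXO gene with the highest CPM in DMSO among those with no call, stood at 0.10 and passed without U2 (0.0366). This ranking by CPM takes no account of transcript length. Chosen after their values were seen, FBXO38 (0.55, offset value 0.54) and FBXO9 (-0.45, offset value -0.74) were called in the same direction in all 20 alternatives fitted at the same threshold, and FBXO22 went from -0.20 with no call to -0.78 with offsets, where it was called lower (edgeR adjusted p = 6.88e-08).

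Among the KLHL genes, 7 of 24 rose and 4 fell. KLHL8 (chr4:87160103-87240314, GRCh38) had the smallest p of any member: 9.19 and 10.2 CPM in DMSO against 19.1, 21.3 and 19 in UNC1999. Its level was 2.04-fold higher, with a log2 change of 1.03 ± 0.16 (edgeR adjusted p = 3.84e-06) and an offset value of 0.59. KLHL12 (chr1:202891100-202928636, GRCh38), which acts on the COPII coat protein SEC31, measured 80.2 and 74 CPM in DMSO and 51.7, 55 and 42.4 in UNC1999. It fell by 0.63 on the log2 scale (SE 0.12, edgeR adjusted p = 6.83e-05), and by 0.40 with offsets. KLHL15, an adaptor for the repair protein CtIP, measured 15 and 14.6 CPM in DMSO and 23.3, 24.4 and 22.8 in UNC1999. It rose by 0.66 ± 0.14 (edgeR adjusted p = 0.000317), and its offset value of 0.19 was not called.

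KLHL11 rose by 0.68 ± 0.19 (edgeR adjusted p = 0.00446), and by more with offsets, at 1.05. The first call was lost without D2, where the log2 fold change was 0.63. KLHL9, a mitotic regulator of Aurora B, rose by 0.40 ± 0.14 (edgeR adjusted p = 0.0217). Its call was lost without D1 (0.222), D2 (0.0637) or U3 (0.0576). KLHL20, an adaptor for DAPK1 and PML, rose by 0.44 ± 0.17 (edgeR adjusted p = 0.0379), a call lost without D1 (0.211), D2 (0.125), U1 (0.059) or U3 (0.0686). The offset values of KLHL9 (0.00229) and KLHL20 (0.27) were not called. KLHL18 fell by 0.51 (SE 0.12, edgeR adjusted p = 0.000982) and KLHL7, a retinitis pigmentosa gene, by 0.54 (SE 0.16, edgeR adjusted p = 0.00738). Both calls were lost without D1 (0.0568 and 0.0977), and that of KLHL7 also without U1 (0.0576). KLHL6, a lymphocyte adaptor, overlapped between the groups at -0.03, as did KLHL21, the most abundant KLHL gene with no call, at -0.08. KLHL32, named after its value was seen, had the highest fold change of all members at 1.31 ± 0.53. It rested on 3 and 7 counts in DMSO and 20, 14 and 7 in UNC1999 and did not pass (edgeR adjusted p = 0.0513). Only U1 and U2 reached the count minimum, so KLHL32 is a member through the group where it was high. Its rank is therefore partly set by the rule.

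No KBTBD gene of the 5 rose, and KBTBD4 fell. KBTBD4, an adaptor that acts on the CoREST complex, measured 50.7 and 47.7 CPM in DMSO and 35.1, 36.1 and 36.1 in UNC1999. It fell by 0.46 (SE 0.12, edgeR adjusted p = 0.00211), with no call without D1 (0.0565) or with offsets (-0.08). In the annotation 38.3% of its exonic bases overlap PTPMT1 on the opposite strand. KBTBD8, a neural crest regulator, lay at the threshold with 0.44 ± 0.18 (edgeR adjusted p = 0.0501). It was called higher in 9 alternatives, among them the fit without U2 (edgeR adjusted p = 0.0248). Its log2 fold change was 0.73 without D1 and 0.19 without D2, and its offset value of 0.03 was not called. KBTBD2, which acts on a PI3-kinase subunit, did not pass at 0.26.

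**Figure D3:**
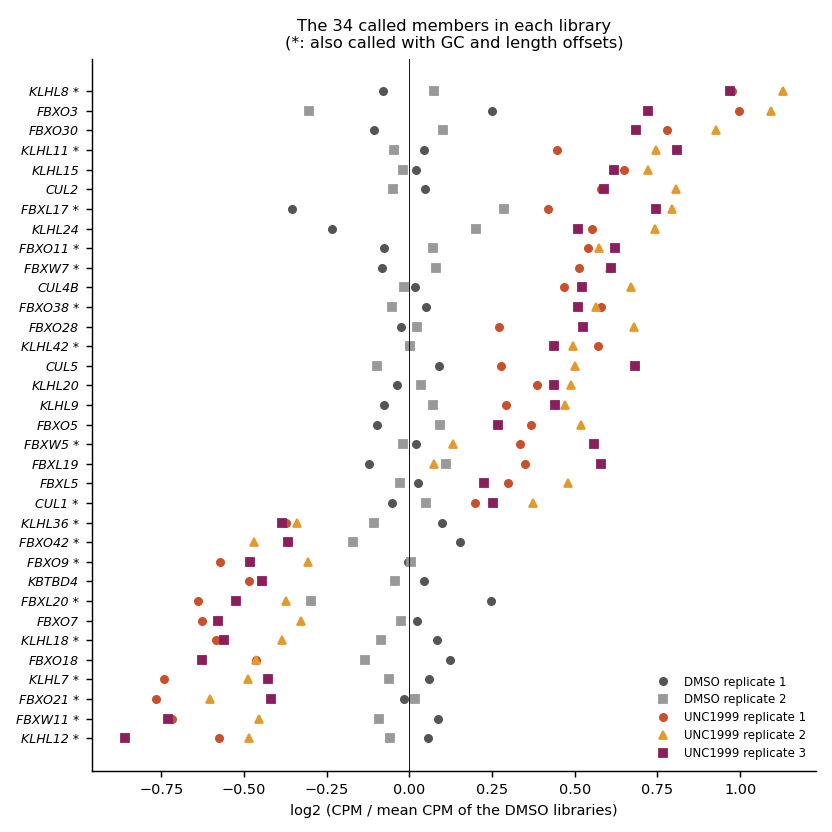
Log2 ratio of CPM in each library to the mean CPM of the DMSO libraries for the 34 called members; an asterisk marks those called in the same direction with GC and length offsets. In 33 of the 34 the UNC1999 libraries do not overlap the DMSO libraries; the exception is FBXL19.

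Groups that did not overlap were common in the whole table: all UNC1999 libraries lay above both DMSO libraries for 24.2% of tested genes and below for 30.4%. Among the members, 30 lay above and 17 below. The median log2 shift of the members from their DMSO means was 0.17, 0.08 and 0.23 in U1, U2 and U3. Over all tested genes it was 0.008, -0.067 and -0.005. Without U2, 29 members were higher and 15 lower (all genes 22.2% and 23.5%). Without D1 the counts were 11 and 5 (all genes 8.57% and 10.1%), and without D2 they were 14 and 12 (all genes 9.69% and 12.3%).

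Fold changes of the members varied with the GC content of the transcript, as did those of all genes, and not in one direction. GC content here is that of the longest transcript, protein-coding where one exists. Below 40% GC, 12 of 22 members were higher and 0 lower (all genes in that band 49.2% higher and 4.33% lower). From 40% to 45%, 5 of 21 members were higher and 4 lower (all genes 27.4% and 13.8%). From 45% to 50%, 3 of 9 were higher and 3 lower, while all genes there were 5.41% higher and 43.1% lower. From 50% to 55%, 4 of 6 members were lower (43.9% of all genes in that band). From 55% to 60%, 0 of 9 were called in either direction (all genes 2.58% and 12.2%). At 60% and above, the 17 members had a median of 0.16, with 2 called higher and 1 lower (all genes 0.14, 12.1% and 2.06%). Over the 84 members, Spearman's rho between GC content and fold change was -0.39, a description across genes that share the same 5 libraries. The part that base composition plays in the members' changes was not tested beyond the offset values given. To show what the range of composition looks like, 90 bases from the middle of the coding sequence are given for the called-higher member of lowest GC (FBXO30), the called-higher member of highest GC (FBXL19) and the called-lower member of highest GC among those not called with offsets (FBXO18). They come from GENCODE 29 (GRCh38), with G and C in capitals.

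FBXO30: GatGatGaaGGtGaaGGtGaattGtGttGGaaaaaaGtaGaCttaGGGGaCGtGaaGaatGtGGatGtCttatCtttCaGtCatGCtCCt
FBXL19: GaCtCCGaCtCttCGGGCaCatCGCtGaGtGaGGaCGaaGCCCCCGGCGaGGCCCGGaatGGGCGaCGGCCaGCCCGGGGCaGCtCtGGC
FBXO18: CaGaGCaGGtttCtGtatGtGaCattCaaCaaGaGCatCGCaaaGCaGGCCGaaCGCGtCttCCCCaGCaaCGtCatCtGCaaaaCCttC
These stretches lie at chr6:145805245-145805334 (minus strand), chr16:30930220-30930309 (plus strand) and chr10:5915450-5915539 (plus strand), and hold 37, 65 and 46 G or C bases of 90.

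**Figure D4:**
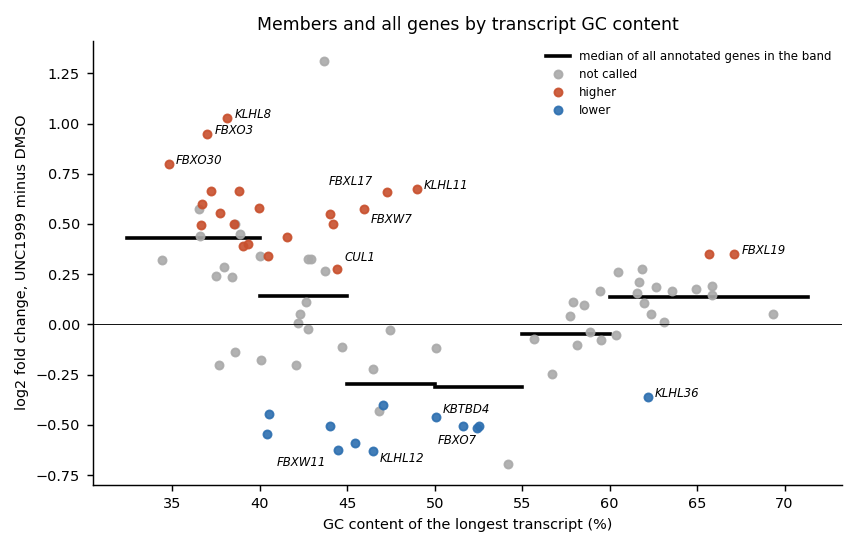
Log2 fold change (UNC1999 minus DMSO) of the 84 members against the GC content of the longest transcript (%), coloured by call, with black lines for the median of all annotated genes in 6 bands of GC content. Called-higher members lie mostly under 50% GC, and no called-lower member lies below 40%.

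The promoters of the members were compared with all promoters in the RefSeq table (GRCh38.p14), as UNC1999 acts on a chromatin mark. An entry was found for 69 of 84 members. The 250 bases before the start held a median of 23 CpG in members and 11 in all 35116 promoters. Each member gave its first listed start, while the full set took every listed start with no filter on expression. Promoters of expressed genes alone were not compared. Among 7 motifs searched on both strands, GGGCGG stood in 62.3% of member promoters and 42.6% of all, CCAAT in 23.2% and 32%, and CCGGAAG in 17.4% and 8.52%. CACGTG stood in 5.8% and 6.34%, TGACGTCA in 2.9% and 1.65%, the NRF1 motif in 2.9% and 1.03%, and the YY1 motif in 1.45% and 0.248%. GGGCGG was present in 13 of 21 promoters of members called higher and 9 of 12 of those called lower. CCGGAAG was present in 6 and 2 of these, CCAAT in 4 and 3, and each other motif in at most 1 of either group. The promoters of the members with the smallest p in each direction are shown, with matches to any of the 7 motifs in capitals; the only motif found in either was GGGCGG or its reverse complement.

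KLHL8: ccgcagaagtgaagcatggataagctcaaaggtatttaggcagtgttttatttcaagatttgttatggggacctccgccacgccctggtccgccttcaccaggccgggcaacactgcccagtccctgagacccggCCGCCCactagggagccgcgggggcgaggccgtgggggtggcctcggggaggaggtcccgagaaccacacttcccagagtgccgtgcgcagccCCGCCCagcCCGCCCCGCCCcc
FBXW11: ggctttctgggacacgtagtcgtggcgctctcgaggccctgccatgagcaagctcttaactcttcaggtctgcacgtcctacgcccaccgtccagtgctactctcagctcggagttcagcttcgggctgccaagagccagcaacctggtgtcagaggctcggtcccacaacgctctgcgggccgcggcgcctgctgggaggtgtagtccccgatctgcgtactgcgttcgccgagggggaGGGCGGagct
They lie at chr4:87220619-87220868 and chr5:172006639-172006888 (GRCh38.p14, minus strand) and hold 18 and 21 CpG. The RefSeq table lists 2 starts for KLHL8, of which the first is shown; it lies inside the GENCODE 29 span of the gene given above.

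Of 15 partner genes of the cullins (RING proteins, linkers and ubiquitin-carrying enzymes), 1 rose, 6 fell and 8 did not pass, with a median of -0.26, beside 15.7% higher and 19.5% lower among all genes. With offsets 0 rose and 9 fell, beside 14.6% and 18.7% of all genes. ARIH2, a ligase that works with neddylated CUL5, measured 172 and 165 CPM in DMSO and 110, 113 and 105 in UNC1999. It fell by 0.62 on the log2 scale (SE 0.11, edgeR adjusted p = 2.16e-05), and by 0.33 with offsets. UBE2R2, a ubiquitin-conjugating enzyme of CUL1 ligases, fell by 0.59 (SE 0.11, edgeR adjusted p = 4.83e-05), and by 0.39 with offsets. ARIH1, the partner of neddylated CUL1, was called higher at 0.30 (edgeR adjusted p = 0.0434) and, with offsets, lower at -0.34. Its first call was lost without D1 (0.254), D2 (0.172), U1 (0.0511) or U3 (0.0803).

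Of 22 tested genes of the NEDD8 cycle, 3 rose and 7 fell, with a median of -0.04 (2 and 5 with offsets); the shares of all genes are those given for the partners, here and for the next lists. CAND1, the adaptor exchange factor, measured 67.4 and 68.5 CPM in DMSO and 109, 106 and 109 in UNC1999. It rose by 0.67 ± 0.11 (edgeR adjusted p = 1.40e-05), but its offset value of 0.14 was not called. UBA3, a subunit of the NEDD8-activating enzyme, rose by 0.57 ± 0.12 (edgeR adjusted p = 0.000306), and DCUN1D5, which promotes NEDD8 transfer, fell by 0.72 (SE 0.14, edgeR adjusted p = 8.38e-05); both were called with offsets.

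Of 68 tested adaptors from other families, 12 rose and 16 fell, beside 15.7% higher and 19.5% lower among all genes. With offsets 6 rose and 12 fell, beside 14.6% and 18.7% of all genes. VHL, the adaptor of CUL2 that targets HIF1A, measured 211 and 218 CPM in DMSO and 121, 124 and 116 in UNC1999. It fell by 0.84 (SE 0.11, edgeR adjusted p = 2.03e-07). Its scaffold CUL2 rose by 0.66, but was not called with offsets (0.31). BRWD3, an adaptor of CUL4, rose by 1.11 ± 0.15 (edgeR adjusted p = 8.74e-07), and SOCS4, an adaptor of CUL5, by 0.82 ± 0.13 (edgeR adjusted p = 7.45e-06). CRBN, the CUL4 adaptor bound by thalidomide, named after its value was seen, rose by 0.93 ± 0.17 (edgeR adjusted p = 5.60e-05), and its offset value was 0.86.

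Of 29 tested genes that encode known substrates, 4 rose and 12 fell, with a median of -0.22, and with offsets 7 rose and 9 fell, with a median of -0.09. These are transcript levels, and protein turnover was not measured. MYC, a substrate of FBXW7, measured 183 and 176 CPM in DMSO and 79.4, 89.9 and 93.6 in UNC1999. It fell by 1.03 (SE 0.11, edgeR adjusted p = 7.87e-09), and by 0.76 with offsets. IREB2, the substrate of FBXL5, rose by 0.87 ± 0.12 (edgeR adjusted p = 4.99e-07), and CDC25A, a substrate of the beta-TrCP proteins, fell by 0.70 (SE 0.11, edgeR adjusted p = 6.62e-06).

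**Figure D5:**
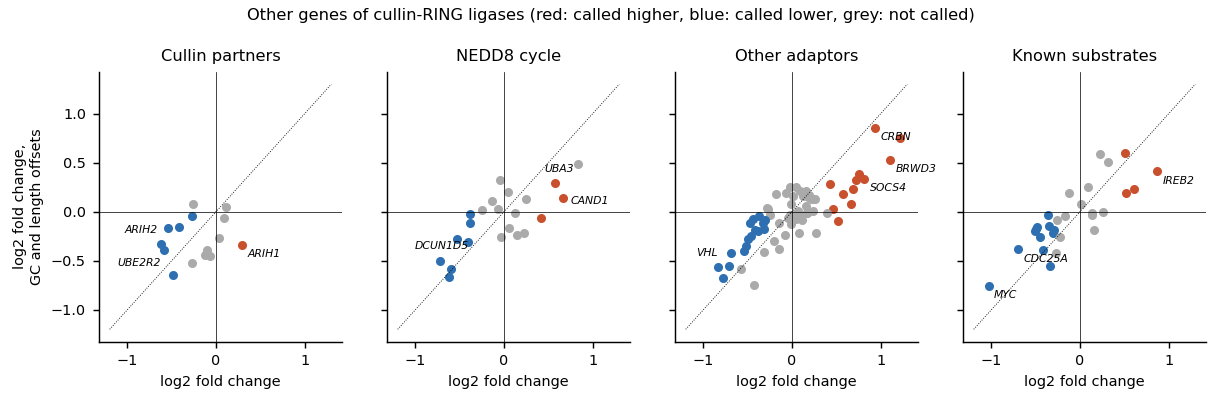
Log2 fold change (UNC1999 minus DMSO) without offsets (x axis) and with GC and length offsets (y axis) for genes of 4 lists: cullin partners, the NEDD8 cycle, other adaptors and known substrates; colour gives the call without offsets and the dotted line marks equal values. MYC and VHL are low and BRWD3 and CRBN high on both axes, while ARIH1 is above 0 on the x axis and below 0 on the y axis.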

How the data were processed

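For 2 DMSO and 3 UNC1999 libraries the authors deposited raw counts by gene symbol. Tools named in the submitters' processing notes are HTSeq 0.13.5, STAR 2.7.9, edgeR 3.34.0 and fastp, with the build hg19 and no settings; no source used here gives the annotation, strand setting or filters. Members and lists were chosen with earlier results of these data known. Counts were tested with edgeR 4.0.16 in R 4.3.3 (filterByExpr, TMM factors, quasi-likelihood F-test, Benjamini-Hochberg over 13075 genes, threshold 0.05). CPM values are scaled by the TMM factors. The limit for a count of 0 is 3 counts (0.343 to 0.355 CPM across libraries), counting error only. GC content, length and positions came from GENCODE 29 (GRCh38), with no conversion from hg19; per-kilobase levels use the length of the longest transcript. For the offsets, the difference of each library from the average library was fitted with splines in GC content (6 df) and length (4 df), over 11248 annotated genes, all 84 members included. DESeq2 1.42.0 and limma 3.58.1 gave alternatives.

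Named members are every cullin and 15 genes of known role. In each adaptor family they also include the 3 highest and 3 lowest called fold changes and the gene with no call of highest CPM in DMSO. The other members stand in counts and ranges; a result for 1 gene that this rule would name is not reported here. Each pathway list gives its 3 called genes of smallest p, with a gene of the opposite direction in the last place if all moved alike. Genes outside this rule are marked in the text. The promoter motifs and the rules for the sequences shown were chosen after the fold changes were known.

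In simulated counts for 13075 genes with 200 changed, edgeR recovered 90% of the 2-fold and 66% of the 1.5-fold changes with the right sign, and 7.14% of calls were unchanged genes. With a simulated smooth GC trend and no true change in 11248 genes, the test without offsets made 7157 calls. The test with offsets made 2. The simulated trend was larger than that of the observed medians (0.43 below 40% GC, -0.31 from 50% to 55%). It was the same in every UNC1999 library and of a smooth shape that the splines can fit. These counts do not show how many calls the observed trend would make, nor how offsets act on true changes that follow GC content.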

Additional observations from a re-analysis of the deposited data

How the results depend on the processing

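Depth limits the rarest members: those near the count minimum, such as FBXL22, could change without a call. With 2 DMSO libraries, leaving out either one costs many calls; the cause was not tested beyond the smaller number of samples. Of the 34 called members, FBXO38, FBXO9, FBXO21, FBXW7, FBXW11, KLHL8 and KLHL12 kept their call and direction in all 20 alternatives fitted at a threshold of 0.05, the GC and length offsets and each left-out library included.

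Over the left-out libraries, members called higher ranged from 11 to 29 and lower from 5 to 15, all genes from 1158 to 2862 higher and from 1367 to 3030 lower, and pathway genes from 15 to 37 higher (20 with all libraries) and from 21 to 51 lower (41). At a threshold of 0.01, 13 members were higher and 10 lower (all genes 1416 and 1796). Against a 2-fold change (edgeR's glmTreat), 0 members and 0 pathway genes were called in either direction, and 2 genes higher and 0 lower among all; at an unadjusted p under 0.05 edgeR's F-test had 30 members higher and 12 lower (2650 and 3114 of all 13075 genes), and the DESeq2 Wald test called 17 and 9 (all genes 12.9% and 14.6%). With GC and length offsets 9 members were higher and 14 lower (all genes 14.6% and 18.7%). Without UNC1999 replicate 2 as well, 10 were higher and 16 lower (all genes 15.8% and 19.6%), an alternative chosen after seeing the data.

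The replicate numbers were shared by 2 pairs only, and their deviations correlated at 0.07 and 0.04. With 2 DMSO libraries, the mismatched numbers give the same values with the sign turned (-0.07 and -0.04). These correlations therefore cannot decide whether libraries of the same number belong together. With the replicate number as a block, members called were 19 higher and 12 lower (all libraries; all genes 1886 and 2136) and 21 and 12 (shared numbers; all genes 1885 and 2133). The block with offsets gave 9 members higher and 12 lower, 8 pathway genes higher and 28 lower, and 1167 higher and 1634 lower among all genes.

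Several log2 fold changes changed sign. With offsets, with the block and offsets, and with offsets without UNC1999 replicate 2, the values were -0.24, -0.27 and -0.23 for CUL3, -0.036, -0.00108 and -0.058 for CUL9, -0.26, -0.27 and -0.27 for FBXW2, -0.14, -0.16 and -0.15 for FBXO41, 0.14, 0.12 and 0.085 for KLHL6, and -0.34, -0.32 and -0.42 for ARIH1. With the block and offsets CUL5 stood at -0.094, FBXL6 at -0.00703, KLHL9 at -0.036 and KBTBD8 at -0.00241, and KLHL9 at -0.00162 with offsets without UNC1999 replicate 2. With no factors KLHL21 stood at 0.028, FBXL12 at 0.00321 and KLHL6 at 0.077, and KLHL6 at 0.042 with upper-quartile factors and 0.014 with the stricter filter. Over the left-out libraries the values ran from -0.027 to 0.22 for CUL9, -0.038 to 0.26 for FBXO41, -0.26 to 0.13 for KLHL21 and -0.11 to 0.053 for KLHL6. The cause of these changes was not tested.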
